A study of Mus musculus with 12 samples.

Results

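The respiratory chain and ATP synthase of the inner mitochondrial membrane are built from proteins of both the nuclear and the mitochondrial genome, and the nuclear genes are described here. They were chosen by name from the rows of the expression table: protein-coding mouse genes whose symbol starts with Nduf, Uqcr, Cox4, Cox5, Cox6, Cox7, Cox8, or Atp5, together with Sdha, Sdhb, Sdhc, Sdhd, and Cyc1. The GENCODE vM39 annotation of GRCm39 holds 98 such genes, of which 89 are among the 12591 genes of the table. These are 37 genes of complex I, 8 assembly factors of complex I (the Ndufaf genes), 4 genes of complex II, 9 of complex III, 13 of complex IV, and 18 of complex V. The 9 others (Cox4i2, Cox6a2, Cox6b2, Cox7a1, Cox7b2, Cox8b, Cox8c, Ndufa4l2, and Ndufb11b) are not listed, and the authors kept only genes with at least 1 CPM (read counts scaled for library size) in all samples.

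Complex I oxidizes NADH and complex II, the succinate dehydrogenase of the citric acid cycle, oxidizes succinate, and both pass electrons through coenzyme Q to complex III. Complex III passes them to cytochrome c, and complex IV (cytochrome c oxidase) gives them to oxygen. Complexes I, III, and IV pump protons, and complex V (ATP synthase) lets the protons flow back through its membrane ring and makes ATP. A few core proteins of complexes I, III, IV, and V are encoded in mitochondrial DNA, whereas all subunits of complex II come from nuclear genes.

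The cells were immortalized embryonic fibroblasts (MEFs) of mice heterozygous for PER2::LUC, a knock-in that fuses luciferase to the clock protein PER2 (strain C57 PER2::LUC). Confluent dishes received 10 μM deazaneplanocin A (DZ, an inhibitor of the enzyme AHCY that hydrolyzes S-adenosylhomocysteine), 1 mM adenine, 1 mM S-adenosylmethionine (SAM, the methyl donor of the cell), or neither (CTL), for 24 h, and medium of all 4 groups, CTL included, held 3.3 mM HCl. Each group had 3 dishes, and nothing in the labels places them in separate cell lines, so p-values measure the spread between dishes of 1 cell population. In bulk RNA, fewer cells of a type and less RNA per cell cannot be told apart. Of 12 fibroblast markers, 9 are in the table, and their summed level was 11059 ± 194 CPM in CTL, 13980 ± 600 in DZ, 18624 ± 1113 in adenine, and 14170 ± 474 in SAM. The sum mostly follows the collagen genes Col1a1 and Col1a2, which had the highest levels. At a false discovery rate under 0.01, 7 of the 9 were higher in DZ and 1, Vim, was lower (22.6% and 23.4% of all genes). In adenine 7 were higher and the other 2 were not called, and in SAM 8 were higher and the other 1 was not called. Of all genes, 30.6% were called higher in adenine and 33.7% in SAM. The log2 fold change of Vim was -0.39 in DZ, 0.027 in adenine, and 0.43 in SAM. None of the epithelial, endothelial, and striated muscle markers is listed. Of 5 leukocyte markers only Cd68 is listed, with a mean of 3.49 CPM in CTL, 3.25 in DZ, 11.5 in adenine, and 16.8 in SAM, and its part in the results was not tested.

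Each gene was compared with CTL on the deposited log2 CPM with limma, in 1 model of all 12 libraries, and a gene was called higher or lower at a false discovery rate (FDR) under 0.01 over all 12591 genes. Reads on the listed genes numbered 45649534 to 56789090 per library, and the lowest read number of any of the 89 genes in any library was 217. The SD between dishes of a group had a median of 0.050 on the log2 scale over these genes. The 3 comparisons with CTL share the same 3 CTL libraries, so their values are given side by side and are not independent of each other. Wherever a limma count of 0 is given, voom on reads recovered from the table gave 0 as well. With plain read totals in place of the authors' scaling, the median over all genes of the log2 fold change in SAM moved from -0.015 to 0.11. Changes with SAM are therefore relative to the authors' scaling.

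Respiratory chain genes moved in both directions within each treatment, mostly by small amounts. In DZ, 13 of the 89 were called higher and 23 lower, where 45.9% of all genes were called (22.6% higher and 23.4% lower), and without DZ replicate 3 the count higher was 8. In adenine, 16 were called higher and 38 lower, against 61.6% of all genes (30.6% higher and 31.0% lower). The share called lower was 42.7%. For 53 genes, no transcript of another gene, overlapping genes included, held a near-identical stretch of their coding sequence. Of these, 12 were called higher and 18 lower in adenine, with a median log2 fold change of -0.021. In SAM, 27 of the 89 were called higher and 33 lower, against 69.3% of all genes (33.7% higher and 35.7% lower). The 3 dishes of the treatment and of CTL did not overlap for 58 of the genes in DZ, 65 in adenine, and 65 in SAM, beside 65.4%, 74.7%, and 77.6% of all genes. The median log2 fold change of the 89 genes was -0.058 in DZ, -0.090 in adenine, and -0.00099 in SAM, beside -0.0057, -0.0030, and -0.015 over all genes. Changes called with a log2 fold change of at least 0.5 in either direction were few: 3 genes in DZ, 4 in adenine, and 8 in SAM, where 12.2%, 26.9%, and 35.1% of all genes passed the same rule. With plain read totals, the split in SAM turned to 39 higher and 15 lower (43.4% and 27.5% of all genes) and the median to 0.12, and that in adenine to 21 higher and 28 lower with a median of -0.028. Of the genes, 16 were called in none of the 3 treatments, among them Ndufa1, Ndufa11, Ndufs5, Uqcr10, Atp5pd, and Atp5po. The share of all genes called in none was not computed, so this count cannot be set against it.

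**Figure D1:**
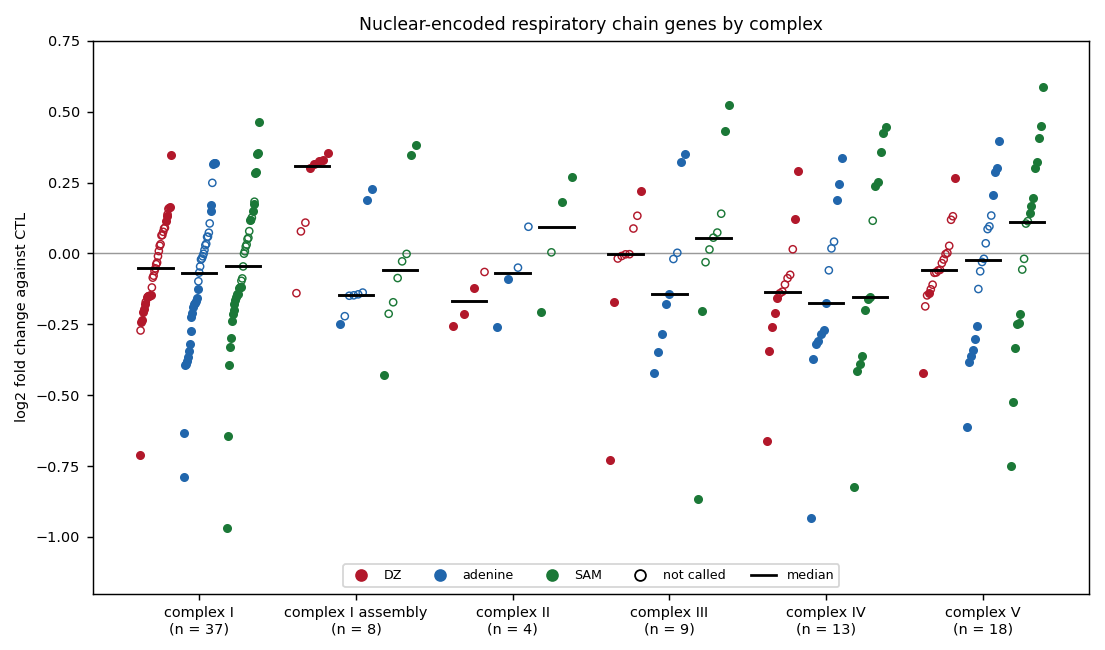
Log2 fold change against CTL (vertical axis) of each of the 89 genes, by complex (horizontal axis) and treatment (color). Filled points were called at an FDR under 0.01, open points were not, and black bars are medians. The lowest point of each treatment lies in complex III for DZ (Uqcrh, -0.73), complex IV for adenine (Cox7a2l, -0.93), and complex I for SAM (Ndufa6, -0.97).

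The summed level of the 89 genes was 8341, 8167, and 8475 CPM in the CTL dishes, 7949, 7918, and 7888 in DZ, 7579, 7369, and 7370 in adenine, and 7770, 7745, and 8324 in SAM. DZ and adenine dishes all lay below the CTL dishes. SAM replicate 3 stood apart from the other SAM dishes and lay within the CTL range. Complex V held the largest part of this sum and went from a mean of 3231 ± 52.1 CPM in CTL to 3071 ± 18.6 in DZ, 2817 ± 40.5 in adenine, and 3034 ± 110 in SAM. Complex IV went from 1579 ± 37.1 to 1439 ± 14.6, 1395 ± 28.5, and 1496 ± 80.3, and complex I from 2217 ± 40.4 to 2126 ± 2.88, 2010 ± 25.6, and 2109 ± 90.3. All these sums are on the authors' scaling. The ratio of the normalized library size to the reads on the listed genes was 0.962 to 0.968 in CTL and 1.047 to 1.054 in SAM. The sums were not computed with plain read totals, so the lower sums in SAM hold only relative to that scaling. Without SAM replicate 3, 23 of the 89 genes were called higher and 32 lower in SAM, and the median was -0.047.

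**Figure D2:**
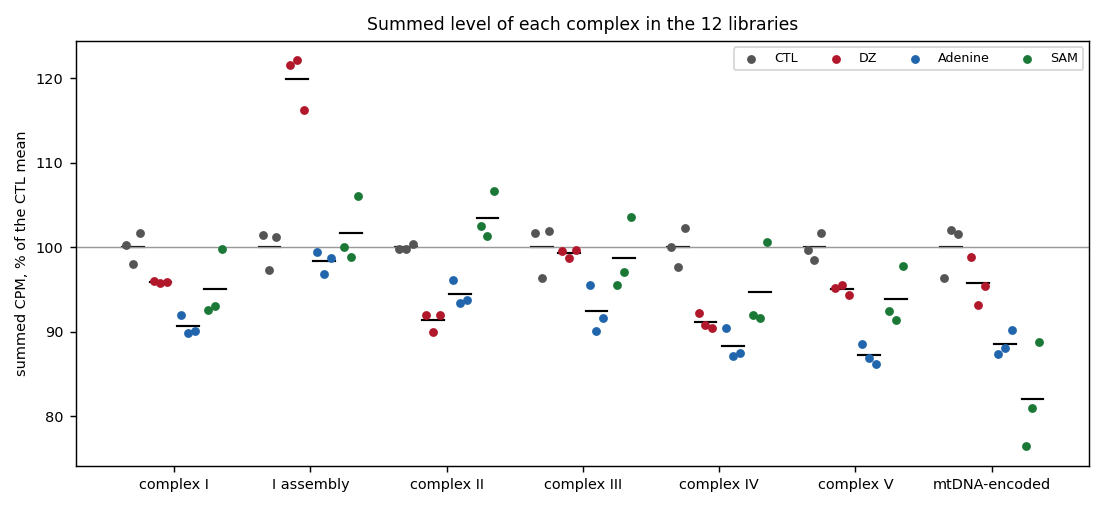
Summed CPM of the genes of each complex in every library (points), as percent of the CTL mean of that complex, with black bars for group means. The genes encoded in mitochondrial DNA are shown for comparison. Values are on the authors' scaling. Assembly factors of complex I were highest in the 3 DZ dishes, and the highest SAM point of every complex is SAM replicate 3.

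Complex I has a matrix arm, where NADH is oxidized (N module) and coenzyme Q is reduced (Q module), and a membrane arm that pumps protons (P module). In DZ, 4 of its 37 genes were called higher and 11 lower. In adenine, 5 were called higher and 17 lower, and in SAM 8 were called higher and 16 lower. Of all genes, 22.6% were called higher and 23.4% lower in DZ, 30.6% and 31.0% in adenine, and 33.7% and 35.7% in SAM. The medians over complex I were -0.053 in DZ, -0.068 in adenine, and -0.046 in SAM. With plain read totals the split in SAM turned to 13 higher and 5 lower, with a median of 0.076. The count lower in SAM was also 9 without SAM replicate 1 and 10 without SAM replicate 2 or CTL replicate 3, and the count higher was 5 without CTL replicate 2. In DZ, 7 were lower without DZ replicate 2 or CTL replicate 3, and 1 or 2 higher without DZ replicate 2, DZ replicate 3, CTL replicate 1, or CTL replicate 2. In adenine, 3 were higher without adenine replicate 1 or CTL replicate 2.

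Among the 11 genes listed for the N module, 7 were called lower and 0 higher in adenine (31.0% and 30.6% of all genes), and 8 lower and 0 higher in SAM (35.7% and 33.7%). At an unadjusted p under 0.05, 0 of the 11 N module genes were higher in adenine and 1 in SAM. The count of 8 in SAM depended on the scaling and on single libraries. It was 2 lower beside 2 higher with plain read totals, 3 lower without SAM replicate 1, and 4 without SAM replicate 2. Leaving out CTL replicate 1 or 3 gave 4 lower, and leaving out CTL replicate 2 gave 5. In DZ, 1 N module gene was called higher and 4 lower, or 2 lower without DZ replicate 2. Of the 6 genes of the Q module, 2 were called higher and 1 lower in DZ, 1 higher and 4 lower in adenine, and 2 higher and 3 lower in SAM. The Q module in SAM had 3 higher and no lower call with plain read totals. It had 1 lower in SAM without SAM replicate 1, SAM replicate 2, or CTL replicate 3, and 1 higher without CTL replicate 2. In DZ, the Q module had no higher call without DZ replicate 3 or CTL replicate 1. It had 1 higher without DZ replicate 2, CTL replicate 2, or CTL replicate 3, and its lower call was lost without CTL replicate 1 or 3. Among the 20 genes of the P module, 1 was called higher and 6 lower in DZ (22.6% and 23.4% of all genes), or 3 lower without DZ replicate 1 or with plain read totals. In adenine 4 were called higher and 6 lower (30.6% and 31.0%), and in SAM 6 higher and 5 lower (33.7% and 35.7%). These splits were 6 and 4 in adenine and 8 and 3 in SAM with plain read totals.

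Ndufa6, an accessory subunit of the matrix arm (chromosome 15, 82234340 to 82238523, minus strand, GRCm39), had the largest fall of complex I in each of the 3 treatments. Its log2 CPM was 6.75, 6.66, and 6.65 in CTL, 6.01, 6.0, and 5.91 in DZ, 5.89, 5.96, and 5.84 in adenine, and 5.64, 5.78, and 5.73 in SAM. All 9 treated dishes lay below the CTL dishes. The log2 fold change was -0.71 ± 0.045 (SE, n = 3 per group) in DZ, -0.79 ± 0.045 in adenine, and -0.97 ± 0.045 in SAM (limma, adjusted p = 6.06e-09, 3.44e-10, and 2e-11). Coding sequence of Ndufa6 is shared with transcripts of the overlapping gene Smdt1, which was not called in any treatment (-0.03, 0.11, and 0.15). The window from 250 bases before to 50 bases after the start of Ndufa6, as RefSeq gives it on GRCm38.p6 (chr15:82354242-82354541, minus strand), is printed because this gene fell most in complex I, and capitals mark the core of the motif bound by the factor NRF1 and a CCAAT box.
Ndufa6: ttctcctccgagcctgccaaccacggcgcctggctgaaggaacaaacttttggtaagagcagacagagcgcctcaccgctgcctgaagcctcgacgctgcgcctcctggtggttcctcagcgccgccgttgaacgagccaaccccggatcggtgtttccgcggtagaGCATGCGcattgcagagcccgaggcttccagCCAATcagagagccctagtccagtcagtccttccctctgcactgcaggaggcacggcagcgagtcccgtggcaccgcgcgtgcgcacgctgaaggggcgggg

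Ndufa10, another accessory subunit, had fold changes of -0.15 ± 0.041 in DZ, -0.63 ± 0.041 in adenine, and -0.65 ± 0.041 in SAM, all called lower. Other genes of complex I rose. Ndufa12, an accessory subunit of the N module, had log2 CPM of 5.80, 5.75, and 5.89 in CTL, 6.14, 6.20, and 6.15 in DZ, 5.84, 5.86, and 5.83 in adenine, and 5.81, 5.77, and 5.96 in SAM. The DZ dishes stood above CTL without overlap (0.35 ± 0.048, limma, adjusted p = 2.05e-05, against 0.029 ± 0.048 in adenine and 0.031 ± 0.048 in SAM). The reads of Ndufa12 may be shared with its processed pseudogene Ndufa12-ps, whose log2 fold change in DZ was 0.31. Ndufa5, of the Q module, had 4.65, 4.62, and 4.65 in CTL, 4.50, 4.43, and 4.54 in DZ, 4.93, 4.99, and 4.96 in adenine, and 4.89, 4.92, and 4.97 in SAM. It was called higher in adenine (0.32 ± 0.045) and SAM (0.29 ± 0.045), and its DZ dishes lay below CTL without a call (-0.15 ± 0.045, limma, adjusted p = 0.0109). Ndufb3, of the membrane arm, had 4.19, 4.09, and 4.13 in CTL, 4.27, 4.05, and 3.86 in DZ, 4.39, 4.33, and 4.43 in adenine, and 4.63, 4.50, and 4.67 in SAM. The SAM dishes were all above the others, with the largest rise of complex I in SAM (0.46 ± 0.082, limma, adjusted p = 9.76e-05), and the value in adenine was 0.25 ± 0.082 (limma, adjusted p = 0.0138). Ndufb10, of the membrane arm, was called lower in DZ (-0.18 ± 0.043) and higher in adenine (0.15 ± 0.043) and SAM (0.35 ± 0.043).

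Assembly factors of complex I, which help to build it and are not part of the finished complex, were mostly higher in DZ. Of the 8 Ndufaf genes, 5 were called higher and 0 lower in DZ (22.6% and 23.4% of all genes), with a median log2 fold change of 0.31, and at an unadjusted p under 0.05 0 of them were lower in DZ. In adenine 2 were called higher and 1 lower (30.6% and 31.0% of all genes), and in SAM 2 higher and 1 lower (33.7% and 35.7%). Ndufaf7, a mitochondrial methyltransferase, had log2 CPM of 4.37, 4.25, and 4.29 in CTL, 4.68, 4.69, and 4.59 in DZ, 4.49, 4.52, and 4.46 in adenine, and 4.64, 4.58, and 4.73 in SAM. It was called higher in DZ (0.35 ± 0.054), adenine (0.19 ± 0.054), and SAM (0.35 ± 0.054), but the call in adenine was lost without adenine replicate 1, adenine replicate 2, adenine replicate 3, CTL replicate 2, or CTL replicate 3 (adjusted p up to 0.0279). Ndufaf2 had 4.43, 4.40, and 4.41 in CTL, 4.70, 4.85, and 4.68 in DZ, 4.61, 4.64, and 4.68 in adenine, and 4.76, 4.78, and 4.84 in SAM. All treated dishes lay above CTL, by 0.33 ± 0.051 in DZ, 0.23 ± 0.051 in adenine, and 0.38 ± 0.051 in SAM (limma, adjusted p = 6.35e-05, 0.000992, and 5.46e-06). Ndufaf4 had 4.72, 4.72, and 4.68 in CTL, 5.11, 5.01, and 4.98 in DZ, 4.56, 4.51, and 4.60 in adenine, and 4.28, 4.22, and 4.33 in SAM. Its DZ dishes lay above CTL (0.33 ± 0.05) and its SAM dishes below (-0.43 ± 0.05, limma, adjusted p = 5.84e-05 and 1.23e-06), with -0.15 ± 0.05 in adenine. Ndufaf1 had 3.82, 3.77, and 3.87 in CTL, 3.93, 3.80, and 3.96 in DZ, 3.56, 3.45, and 3.71 in adenine, and 3.68, 3.58, and 3.68 in SAM. It was called lower in adenine (-0.25 ± 0.073), a call lost without adenine replicate 1, adenine replicate 2, CTL replicate 1, or CTL replicate 3 (adjusted p up to 0.0414) and with plain read totals. Ndufaf3 and Ndufaf5 were called higher in DZ, by 0.30 and 0.31, and had -0.15 and -0.14 in adenine.

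Complex II has 4 subunits, the flavoprotein Sdha, the iron-sulfur protein Sdhb, and the membrane anchors Sdhc and Sdhd. In DZ 3 of them were called lower and 0 higher (at an unadjusted p under 0.05, 0 were higher), in adenine 2 lower and 0 higher (1 at an unadjusted p under 0.05), and in SAM 1 lower and 2 higher. Shares of all genes were 23.4% lower and 22.6% higher in DZ, 31.0% and 30.6% in adenine, and 35.7% and 33.7% in SAM. Sdhb had log2 CPM of 6.18, 6.07, and 6.15 in CTL, 5.96, 5.86, and 5.80 in DZ, 5.88, 5.88, and 5.85 in adenine, and 5.89, 5.88, and 6.0 in SAM. Every treated dish was below the CTL dishes, with fold changes of -0.26 ± 0.046 in DZ, -0.26 ± 0.046 in adenine, and -0.21 ± 0.046 in SAM (limma, adjusted p = 0.000209, 0.000109, and 0.000692), the last not called with plain read totals. Sdhd had 6.24, 6.28, and 6.21 in CTL, 6.01, 6.02, and 6.06 in DZ, 6.25, 6.15, and 6.18 in adenine, and 6.45, 6.49, and 6.61 in SAM. It lay below CTL in DZ (-0.21 ± 0.042), overlapped CTL in adenine (-0.05 ± 0.042), and lay above CTL in SAM (0.27 ± 0.042). Sdhc had 5.87, 5.84, and 5.82 in CTL, 5.76, 5.69, and 5.71 in DZ, 5.96, 5.92, and 5.93 in adenine, and 6.01, 6.0, and 6.07 in SAM. Its value was -0.12 ± 0.034 in DZ, 0.094 ± 0.034 in adenine, and 0.18 ± 0.034 in SAM, called in DZ and SAM. The call in DZ was lost without DZ replicate 2, DZ replicate 3, CTL replicate 1, or CTL replicate 2 (adjusted p up to 0.0288) and with plain read totals. Sdha had 7.69, 7.72, and 7.75 in CTL, 7.65, 7.63, and 7.69 in DZ, 7.65, 7.62, and 7.62 in adenine, and 7.74, 7.69, and 7.74 in SAM. Its changes were -0.066 ± 0.027 in DZ, -0.09 ± 0.027 in adenine, and 0.0037 ± 0.027 in SAM. The call in adenine was lost without adenine replicate 1, adenine replicate 2, adenine replicate 3, CTL replicate 2, or CTL replicate 3 (adjusted p up to 0.0418) and with plain read totals.

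In complex III, 1 of 9 genes was called higher and 2 lower in DZ, 2 higher and 5 lower in adenine, and 2 higher and 2 lower in SAM (of all genes, 22.6% and 23.4%, 30.6% and 31.0%, and 33.7% and 35.7%). Under plain read totals, 3 were lower in adenine, and in SAM 5 were higher and 1 lower, with a median of 0.18 in place of 0.056. Without CTL replicate 3, 3 were lower in adenine. The largest changes differed by treatment. Uqcrh, the hinge protein beside cytochrome c1 (chromosome 4, 115923314 to 115932296, minus strand, GRCm39), had log2 CPM of 6.23, 6.12, and 6.14 in CTL, 5.52, 5.35, and 5.45 in DZ, 6.07, 5.97, and 5.92 in adenine, and 6.23, 6.30, and 6.39 in SAM. The DZ dishes stood far below all others (-0.73 ± 0.054, limma, adjusted p = 2.93e-08). The change was -0.18 ± 0.054 in adenine, which was called, and 0.14 ± 0.054 in SAM, which was not. The call in adenine was lost without adenine replicate 2, adenine replicate 3, CTL replicate 1, or CTL replicate 3 (adjusted p up to 0.0468) and with plain read totals. Uqcrq, a small subunit of the membrane part (chromosome 11, 53318749 to 53322047, minus strand, GRCm39), had 6.94, 6.79, and 6.95 in CTL, 6.97, 6.99, and 6.98 in DZ, 6.58, 6.48, and 6.57 in adenine, and 5.93, 6.0, and 6.14 in SAM. Here the SAM dishes were lowest (-0.87 ± 0.052), the adenine dishes lay between them and CTL (-0.35 ± 0.052), and DZ was not called (0.088 ± 0.052, limma, adjusted p = 0.161). Uqcrb, another small subunit, had 5.36, 5.34, and 5.31 in CTL, 5.35, 5.27, and 5.33 in DZ, 5.67, 5.70, and 5.69 in adenine, and 5.79, 5.83, and 5.96 in SAM. It rose by 0.35 ± 0.044 in adenine and 0.52 ± 0.044 in SAM and overlapped CTL in DZ (-0.018 ± 0.044). Processed pseudogenes of it, Gm16089 and Gm2962, had 0.45 and 0.38 in adenine and 0.52 and 0.39 in SAM.

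Cyc1, cytochrome c1, had 7.15, 7.10, and 7.13 in CTL, 7.31, 7.33, and 7.40 in DZ, 7.18, 7.03, and 7.12 in adenine, and 7.20, 7.17, and 7.24 in SAM. It was called higher in DZ (0.22 ± 0.037, limma, adjusted p = 0.000145) and had -0.02 ± 0.037 in adenine and 0.074 ± 0.037 in SAM. Uqcrc2, a core protein on the matrix side, had 6.53, 6.55, and 6.56 in CTL, 6.43, 6.34, and 6.36 in DZ, 6.16, 6.13, and 6.09 in adenine, and 6.34, 6.34, and 6.36 in SAM. All treated dishes lay below CTL, with -0.17 ± 0.032 in DZ, -0.42 ± 0.032 in adenine, and -0.20 ± 0.032 in SAM, the last not called with plain read totals.

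In complex IV, 2 of 13 genes were called higher and 5 lower in DZ, 3 higher and 7 lower in adenine, and 5 higher and 7 lower in SAM. Shares of all genes were 22.6% higher and 23.4% lower in DZ, 30.6% and 31.0% in adenine, and 33.7% and 35.7% in SAM. In DZ, 1 gene was higher when any DZ replicate, CTL replicate 1, or CTL replicate 2 was left out. The medians over complex IV were -0.13 in DZ, -0.17 in adenine, and -0.15 in SAM. The split in SAM turned with plain read totals, to 6 higher and 3 lower, with a median of -0.031. One of the 13, Cox5b-ps, is annotated as protein coding and is a near-identical copy of Cox5b, so their reads may be shared. Cox7a2l is known as a factor that joins complexes III and IV in supercomplexes, a role not measured in these cells. The gene (chromosome 17, 83765970 to 83824759, minus strand, GRCm39) had the largest fall of all 89 genes in adenine. Its log2 CPM was 7.71, 7.71, and 7.75 in CTL, 7.08, 7.06, and 7.05 in DZ, 6.83, 6.79, and 6.76 in adenine, and 6.87, 6.88, and 6.94 in SAM. The CTL dishes were far above every treated dish, and the fold change was -0.66 ± 0.03 in DZ, -0.93 ± 0.03 in adenine, and -0.82 ± 0.03 in SAM (limma, adjusted p = 1.92e-10, 6.83e-13, and 1.18e-12). A transcribed processed pseudogene of it, Gm6969, had -0.56, -0.83, and -0.70, and reads of these copies cannot be told apart with certainty.

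Cox6a1, the ubiquitous isoform of subunit VIa (chromosome 5, 115483701 to 115487050, minus strand, GRCm39), moved the other way. It had 7.0, 6.86, and 6.97 in CTL, 7.22, 7.22, and 7.25 in DZ, 7.16, 7.15, and 7.08 in adenine, and 7.36, 7.36, and 7.44 in SAM. All treated dishes lay above the CTL dishes, by 0.29 ± 0.038 in DZ, 0.19 ± 0.038 in adenine, and 0.45 ± 0.038 in SAM (limma, adjusted p = 1.1e-05, 0.000349, and 2.69e-08). The RefSeq start windows of both genes on GRCm38.p6 are printed to set the gene that fell most in adenine beside one that rose. They are at chr17:83514284-83514583 for Cox7a2l and at chr5:115348909-115349208 for Cox6a1, both on the minus strand. Capitals mark the NRF1 core on both strands (overlapping), a CCAAT box, and the core of the ETS motif on the minus strand of the window in Cox6a1, and none of the 6 motifs searched is in that of Cox7a2l.
Cox7a2l: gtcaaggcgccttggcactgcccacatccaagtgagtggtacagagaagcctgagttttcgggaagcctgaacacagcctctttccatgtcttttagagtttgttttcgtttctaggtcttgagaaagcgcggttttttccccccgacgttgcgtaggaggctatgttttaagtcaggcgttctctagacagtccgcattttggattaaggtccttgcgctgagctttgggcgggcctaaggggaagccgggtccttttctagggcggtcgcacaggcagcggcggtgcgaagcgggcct
Cox6a1: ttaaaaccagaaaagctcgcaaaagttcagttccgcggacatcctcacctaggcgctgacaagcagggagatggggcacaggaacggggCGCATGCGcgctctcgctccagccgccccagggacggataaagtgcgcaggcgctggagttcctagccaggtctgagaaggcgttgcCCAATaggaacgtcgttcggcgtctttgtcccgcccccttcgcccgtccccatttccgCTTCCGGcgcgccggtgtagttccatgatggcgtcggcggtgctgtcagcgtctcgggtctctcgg

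Many subunits of complex IV have tissue isoforms, of which the ubiquitous form is the one listed here. Cox4i1 had 8.40, 8.38, and 8.46 in CTL, 8.33, 8.34, and 8.30 in DZ, 8.06, 8.03, and 8.02 in adenine, and 7.95, 7.93, and 8.11 in SAM. It was called lower in adenine (-0.37 ± 0.039) and SAM (-0.41 ± 0.039), and the value in DZ was -0.087 ± 0.039. Cox6b1 had 6.36, 6.33, and 6.42 in CTL, 6.35, 6.19, and 6.24 in DZ, 6.44, 6.38, and 6.41 in adenine, and 6.54, 6.57, and 6.72 in SAM. It was called higher in SAM (0.24 ± 0.048), with -0.11 ± 0.048 in DZ and 0.041 ± 0.048 in adenine. Cox7a2 had 5.83, 5.83, and 5.84 in CTL, 5.58, 5.57, and 5.56 in DZ, 5.87, 5.82, and 5.86 in adenine, and 6.0, 5.98, and 6.28 in SAM. The DZ dishes lay below CTL (-0.26 ± 0.059), the adenine dishes overlapped it (0.018 ± 0.059), and the SAM dishes lay above (0.25 ± 0.059). Cox8a had 7.21, 7.15, and 7.28 in CTL, 7.06, 7.07, and 7.09 in DZ, 7.22, 7.11, and 7.13 in adenine, and 7.28, 7.27, and 7.43 in SAM. Its values of -0.14 ± 0.045 in DZ, -0.06 ± 0.045 in adenine, and 0.12 ± 0.045 in SAM were not called. Ndufa4, first counted with complex I and now placed in complex IV, had 6.55, 6.52, and 6.55 in CTL, 6.59, 6.58, and 6.48 in DZ, 6.79, 6.75, and 6.80 in adenine, and 6.84, 6.87, and 6.97 in SAM. It was called higher in adenine (0.25 ± 0.039) and SAM (0.36 ± 0.039), with 0.015 ± 0.039 in DZ. Cox6c, a small membrane subunit, had 6.86, 6.79, and 6.92 in CTL, 6.76, 6.80, and 6.78 in DZ, 7.21, 7.18, and 7.20 in adenine, and 7.25, 7.22, and 7.38 in SAM. It was likewise called higher in adenine (0.34 ± 0.041) and SAM (0.43 ± 0.041) and had -0.075 ± 0.041 in DZ.

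Complex V consists of F1, with the catalytic head and the central stalk, a membrane part (Fo) with a ring of c subunits, and an outer stalk. In DZ 1 of its 18 genes was called higher and 2 lower, in adenine 4 higher and 6 lower, and in SAM 8 higher and 6 lower. Shares of all genes were 22.6% higher and 23.4% lower in DZ, 30.6% and 31.0% in adenine, and 33.7% and 35.7% in SAM. The medians of the 18 genes were -0.059 in DZ, -0.025 in adenine, and 0.11 in SAM. The median was 0.037 in adenine and 0.23 in SAM with plain read totals, and with median centring 6 genes were called lower in DZ. Among the 5 genes of F1 (Atp5f1a to Atp5f1e), a list made after values were seen, 3 were called lower and 0 higher in adenine (0 higher at an unadjusted p under 0.05). Atp5f1b, the catalytic beta subunit, had -0.06 ± 0.028 in DZ, -0.30 ± 0.028 in adenine, and -0.21 ± 0.028 in SAM. Atp5f1a, the alpha subunit, had -0.14 ± 0.028, -0.063 ± 0.028, and 0.30 ± 0.028, so the pair of head subunits parted in SAM. Atp5if1, an inhibitor of the ATPase and not a subunit, had -0.13 ± 0.039, 0.29 ± 0.039, and 0.32 ± 0.039, called in adenine and SAM.

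Atp5me, a small membrane subunit, had the largest rise of the complex in adenine and SAM. Its log2 CPM was 4.63, 4.77, and 4.79 in CTL, 4.81, 4.77, and 4.68 in DZ, 5.18, 5.10, and 5.08 in adenine, and 5.31, 5.23, and 5.41 in SAM. DZ overlapped CTL (0.027 ± 0.059), and the adenine and SAM dishes lay above it (0.40 ± 0.059 and 0.59 ± 0.059, limma, adjusted p = 2.01e-05 and 1.92e-07). Atp5mf, also of the membrane part, had 5.97, 5.92, and 5.96 in CTL, 6.23, 6.20, and 6.22 in DZ, 6.33, 6.19, and 6.24 in adenine, and 6.35, 6.35, and 6.50 in SAM. All treated dishes lay above CTL, by 0.27 ± 0.045 in DZ, 0.30 ± 0.045 in adenine, and 0.45 ± 0.045 in SAM.

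The c ring is encoded by Atp5mc1, Atp5mc2, and Atp5mc3, whose mature proteins are the same, and these genes did not move together. Atp5mc1 (chromosome 11, 95959678 to 95966757, minus strand, GRCm39) had log2 CPM of 6.42, 6.32, and 6.53 in CTL, 6.53, 6.51, and 6.62 in DZ, 6.07, 6.03, and 6.15 in adenine, and 5.65, 5.59, and 5.78 in SAM. Its SAM dishes were lowest (-0.75 ± 0.056), followed by adenine (-0.34 ± 0.056), and DZ overlapped CTL (0.13 ± 0.056, limma, adjusted p = 6.48e-09, 5.79e-05, and 0.0584). Atp5mc2 (chromosome 15, 102571295 to 102580787, minus strand, GRCm39) had 7.34, 7.31, and 7.39 in CTL, 6.94, 6.94, and 6.90 in DZ, 6.78, 6.70, and 6.73 in adenine, and 6.76, 6.77, and 6.94 in SAM. All treated dishes lay below CTL, with -0.42 ± 0.043 in DZ, -0.61 ± 0.043 in adenine, and -0.53 ± 0.043 in SAM (limma, adjusted p = 9.28e-07, 4.15e-09, and 1.86e-08). Atp5mc3 (chromosome 2, 73738779 to 73741933, minus strand, GRCm39) had 6.95, 6.80, and 6.92 in CTL, 7.0, 7.02, and 7.01 in DZ, 7.01, 6.99, and 6.96 in adenine, and 7.07, 7.04, and 7.15 in SAM. Its dishes were a little above CTL in every treatment, and SAM was called (0.19 ± 0.038, beside 0.12 ± 0.038 in DZ and 0.095 ± 0.038 in adenine). Processed pseudogenes carry copies of the first 2 of these genes: Gm10039, a copy of Atp5mc1, had -0.07, -0.49, and -0.80, and Gm10175 and Gm10231, copies of Atp5mc2, had -0.39 each in DZ, -0.65 and -0.63 in adenine, and -0.54 and -0.51 in SAM.

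The RefSeq start windows of the 3 genes, which RefSeq names Atp5g1, Atp5g2, and Atp5g3, are printed because 1 protein product has 3 promoters whose transcripts moved differently. On GRCm38.p6 they lie on the minus strand at chr11:96075582-96075881, chr15:102670998-102671297, and chr2:73911277-73911576. Capitals mark CCAAT boxes in Atp5mc1 (on both strands), overlapping NRF1 cores on both strands in Atp5mc2, and a CCAAT box and the core of the ERR alpha motif, on the minus strand of the window, in Atp5mc3.
Atp5mc1: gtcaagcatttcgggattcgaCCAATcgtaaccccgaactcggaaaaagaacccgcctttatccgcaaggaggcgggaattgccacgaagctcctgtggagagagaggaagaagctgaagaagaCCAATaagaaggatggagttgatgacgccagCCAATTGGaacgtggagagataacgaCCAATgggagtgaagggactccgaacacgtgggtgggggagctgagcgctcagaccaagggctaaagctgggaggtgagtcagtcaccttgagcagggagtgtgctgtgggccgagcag
Atp5mc2: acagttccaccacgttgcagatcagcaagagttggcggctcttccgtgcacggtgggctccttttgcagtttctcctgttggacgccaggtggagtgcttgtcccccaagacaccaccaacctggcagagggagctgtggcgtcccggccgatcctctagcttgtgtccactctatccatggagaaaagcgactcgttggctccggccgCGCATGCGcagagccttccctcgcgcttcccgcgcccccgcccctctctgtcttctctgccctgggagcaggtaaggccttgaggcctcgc
Atp5mc3: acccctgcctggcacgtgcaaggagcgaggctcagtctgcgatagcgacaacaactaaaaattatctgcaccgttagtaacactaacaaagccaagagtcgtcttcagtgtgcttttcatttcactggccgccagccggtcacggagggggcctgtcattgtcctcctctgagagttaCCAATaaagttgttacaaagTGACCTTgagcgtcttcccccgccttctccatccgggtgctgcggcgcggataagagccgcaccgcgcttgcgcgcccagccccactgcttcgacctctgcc

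**Figure D3:**
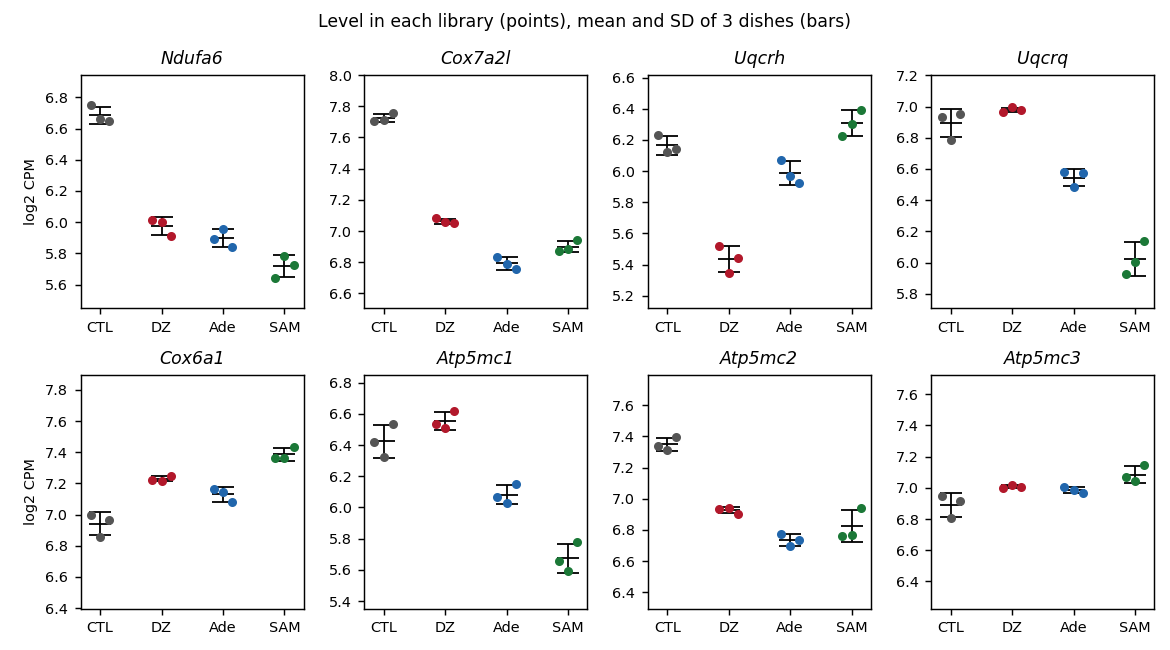
Log2 CPM (vertical axis) of 8 genes in the 3 libraries of each group (points), with the mean and SD as bars, and with a range of 1.5 log2 units on every vertical axis. The treated dishes of Ndufa6, Cox7a2l, and Atp5mc2 lie below all CTL dishes, those of Cox6a1 lie above, Uqcrh is lowest in DZ, and Uqcrq and Atp5mc1 are lowest in SAM.

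SAM was also compared with adenine directly, in the same model. Of the 89 genes, 23 were called higher in SAM and 5 lower, where 42.7% of all genes were called (20.8% higher and 22.0% lower), and the median log2 difference was 0.092 (SAM minus adenine). With a difference of at least 0.5 in either direction, 1 of the genes (Uqcrq) was called, beside 9.65% of all genes, and the dishes of the 2 treatments did not overlap for 46 of the genes, beside 61.3% of all genes. The count rests in part on single libraries. Without SAM replicate 3 it was 14 higher and 8 lower. Without adenine replicate 2 it was 12 higher and 3 lower, without adenine replicate 3 it was 12 higher, and without SAM replicate 1 or adenine replicate 1 it was 3 lower. With plain read totals it was 44 higher and 3 lower (28.4% and 16.5% of all genes). In complex III, 5 of 9 genes were called higher and 1 lower, and in complex IV 6 of 13 higher and 0 lower (at an unadjusted p under 0.05, 0 were lower). Without SAM replicate 3, complex IV had 2 higher and 1 lower. It had 1 higher without adenine replicate 2, without adenine replicate 3, or without the variance trend in limma, and 2 higher in a separate model of the 2 groups. Uqcrq and Atp5mc1 were the genes furthest below adenine (-0.52 ± 0.052 and -0.41 ± 0.056, limma, adjusted p = 8.72e-07 and 2.31e-05), with the SAM and adenine dishes apart in both. Atp5f1a, Uqcrh, and Sdhd were higher in SAM by 0.36 ± 0.028, 0.32 ± 0.054, and 0.32 ± 0.042 (limma, adjusted p = 5.25e-08, 0.000159, and 1.28e-05). Cox7a2l was higher in SAM by 0.11 ± 0.03, a difference no longer called without SAM replicate 2, SAM replicate 3, adenine replicate 2, or adenine replicate 3 (adjusted p up to 0.0386).

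The coding length of the genes was set beside their fold changes after the values were seen. Over the 89 genes, Spearman's rho between coding length and log2 fold change was 0.07 in DZ, -0.44 in adenine, and -0.32 in SAM, and over 10948 protein-coding genes it was -0.06, 0.07, and 0.02. These are descriptions across genes of the same libraries, which share depth and scaling. Of the 50 genes with a coding length under 500 nt, 13 were called higher and 14 lower in adenine, and 19 higher and 12 lower in SAM. Of the 39 longer genes, 3 were called higher and 24 lower in adenine, and 8 higher and 21 lower in SAM. Of all genes of any length, 30.6% were called higher and 31.0% lower in adenine, and 33.7% and 35.7% in SAM. Shares of all genes by length were not computed. Under plain read totals the longer genes had 4 higher and 18 lower in adenine and 12 higher and 9 lower in SAM, and the shorter ones 17 and 10 in adenine and 27 and 6 in SAM. With that scaling the shares of all genes were 36.3% higher and 25.9% lower in adenine, and 43.4% and 27.5% in SAM. The short genes include Atp5me, Uqcrb, Cox6c, and Ndufa5, which rose, but also Uqcrq and Ndufa6, which fell. The median log2 fold change in adenine was 0.0099 for the short and -0.18 for the long genes, whereas 876 protein-coding genes under 500 nt and 10072 longer ones had 0.0038 and 0.022.

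**Figure D4:**
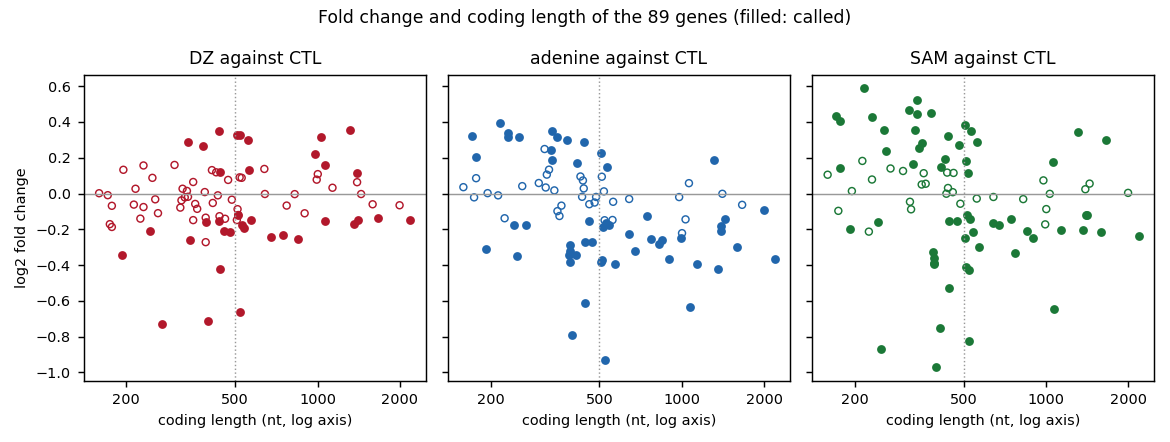
Log2 fold change against CTL (vertical axis) and coding length in nt (horizontal axis, logarithmic) of the 89 genes in the 3 treatments, with filled points for called genes and a dotted line at 500 nt. In adenine and SAM most points right of the line lie below 0, though in SAM not with plain read totals, and points left of it lie on both sides.

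Promoters of respiratory chain genes are known for sites of NRF1, the ETS factor GABPA, YY1, and ERR alpha. Short cores of these motifs were searched on both strands of the RefSeq start windows (GRCm38.p6), where 72 of the 89 genes were matched, with 77 windows. The NRF1 core GCATGCG was in 16.9% of the windows of these genes, against 6.54% of the 11124 windows of protein-coding genes in the expression table and 3.58% of all 32851 windows. YY1 (AAGATGG) was in 15.6%, against 7.21% and 6.34%, and ERR alpha (AAGGTCA) in 10.4%, against 2.86% and 4.72%. ETS (CCGGAAG) was in 23.4%, against 18.5% and 8.86%, CCAAT in 40.3%, against 38.1% and 37.4%, and TATAAA in 7.79%, against 6.68% and 13.6%. In DZ, 2 of the 11 windows of genes called higher and 3 of the 18 of genes called lower held an ETS core, and in adenine 4 of 13 and 5 of 34. In SAM they were 8 of the 22 of genes called higher in SAM and 3 of the 30 of genes called lower, and those with an NRF1 core were 5 of 22 and 4 of 30 in SAM, 3 of 13 and 4 of 34 in adenine, and 3 of 11 and 3 of 18 in DZ. Of the 25 windows of genes not called in SAM, 7 held an ETS core and 4 an NRF1 core. A CCAAT box was in 6 of 22, 10 of 30, and 15 of 25 windows of genes called higher, called lower, and not called in SAM. The splits of YY1, ERR alpha, and TATAAA are not given here. Splits by call were not computed for all genes, and the calls in SAM depended on the scaling. A match is a stretch of letters, and binding was not measured.

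The 13 respiratory chain genes of mitochondrial DNA are all in the table, measured as polyadenylated RNA. None was called higher in any treatment, except 1 in SAM with plain read totals. Of the 13, 1 was called lower in DZ, 8 in adenine, and 9 in SAM (23.4%, 31.0%, and 35.7% of all genes), and at an unadjusted p under 0.05 0, 0, and 0 were higher. Their summed level was 36442, 38562, and 38384 CPM in CTL, 37363, 35196, and 36074 in DZ, 33003, 33301, and 34099 in adenine, and 28888, 30624, and 33540 in SAM. With the authors' scaling, adenine and SAM dishes lay below CTL, and SAM replicate 3 was again the highest of its group. The sums of these 13 genes were not computed with plain read totals. The gene mt-Cytb, cytochrome b of complex III, had log2 CPM of 12.66, 12.71, and 12.74 in CTL, 12.77, 12.67, and 12.70 in DZ, 12.13, 12.15, and 12.21 in adenine, and 11.56, 11.67, and 11.82 in SAM. It fell in adenine (-0.54 ± 0.054) and SAM (-1.02 ± 0.054) and had 0.012 ± 0.054 in DZ. The complex I gene mt-Nd3 had 7.96, 7.92, and 8.02 in CTL, 7.95, 7.84, and 7.81 in DZ, 7.60, 7.57, and 7.54 in adenine, and 7.02, 7.12, and 7.21 in SAM. Its changes were -0.39 ± 0.045 in adenine, -0.85 ± 0.045 in SAM, and -0.096 ± 0.045 in DZ.

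Genes that build or feed the chain were listed too, and their counts stand beside 22.6% higher and 23.4% lower of all genes in DZ, 30.6% and 31.0% in adenine, and 33.7% and 35.7% in SAM. Of 31 assembly factors of complexes II to V, 12 were called higher and 2 lower in DZ, 7 higher and 9 lower in adenine, and 8 higher and 13 lower in SAM. The count lower in SAM was 7 with plain read totals and 8 without CTL replicate 2, and that in adenine 5 with plain read totals. Coa3, an assembly factor of complex IV, had 4.03, 3.81, and 3.91 in CTL, 4.23, 4.14, and 4.09 in DZ, 4.46, 4.41, and 4.50 in adenine, and 4.62, 4.58, and 4.76 in SAM. It rose in adenine (0.54 ± 0.068) and SAM (0.74 ± 0.068), and its call in DZ (0.24 ± 0.068) was lost without DZ replicate 1, DZ replicate 2, CTL replicate 2, or CTL replicate 3 (adjusted p up to 0.04). Coa5, of the same complex, had 6.23, 6.27, and 6.16 in CTL, 6.26, 6.24, and 6.26 in DZ, 5.99, 6.01, and 6.07 in adenine, and 5.55, 5.66, and 5.53 in SAM. It was called lower in adenine (-0.20 ± 0.041) and SAM (-0.64 ± 0.041) and had 0.031 ± 0.041 in DZ. Of 21 genes of protein import and the outer membrane pores, 12 were called higher and 3 lower in DZ, 1 higher and 10 lower in adenine, and 3 higher and 11 lower in SAM, where plain read totals gave 5 higher and 7 lower. The count higher in SAM was 1 without SAM replicate 1, SAM replicate 3, or CTL replicate 2. Tomm20, an import receptor, had 8.04, 8.01, and 8.09 in CTL, 7.73, 7.73, and 7.71 in DZ, 7.35, 7.33, and 7.34 in adenine, and 7.17, 7.19, and 7.24 in SAM. All treated dishes were below CTL, with log2 fold changes of -0.32 ± 0.028, -0.71 ± 0.028, and -0.84 ± 0.028 in DZ, adenine, and SAM. Vdac3, a pore, had 7.64, 7.65, and 7.70 in CTL, 7.81, 7.79, and 7.77 in DZ, 7.25, 7.23, and 7.30 in adenine, and 6.95, 6.94, and 7.04 in SAM. It was higher in DZ (0.13 ± 0.032) and lower in adenine (-0.40 ± 0.032) and SAM (-0.68 ± 0.032), and the call in DZ was lost without DZ replicate 1, DZ replicate 2, CTL replicate 1, or CTL replicate 2 (adjusted p up to 0.0157).

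Of 16 regulators of mitochondrial gene expression, 5 were called higher and 1 lower in DZ, 4 higher and 2 lower in adenine, and 1 higher and 7 lower in SAM (of all genes, 22.6% and 23.4%, 30.6% and 31.0%, and 33.7% and 35.7%), and Ppargc1a and Ppargc1b are not listed. Plain read totals turned the split in SAM to 7 higher and 2 lower. In DZ, 3 were higher without DZ replicate 2 or CTL replicate 1, and in adenine 1 or 2 were higher without adenine replicate 2 or any 1 of the CTL replicates. Nrf1, the factor named above, had 5.08, 5.11, and 5.23 in CTL, 5.63, 5.64, and 5.61 in DZ, 5.06, 5.06, and 5.06 in adenine, and 4.92, 4.91, and 4.95 in SAM. The DZ dishes lay above CTL (0.48 ± 0.042, limma, adjusted p = 1.52e-07), adenine had -0.081 ± 0.042, and SAM lay below (-0.22 ± 0.042), a call not made with plain read totals. Tfb2m, a factor of mitochondrial transcription, had 4.61, 4.52, and 4.58 in CTL, 4.84, 4.75, and 4.77 in DZ, 4.40, 4.50, and 4.44 in adenine, and 4.09, 4.06, and 3.96 in SAM. Its log2 fold change was 0.22 ± 0.053 in DZ, -0.13 ± 0.053 in adenine, and -0.53 ± 0.053 in SAM, and its call in DZ was lost without DZ replicate 1 or CTL replicate 2 (adjusted p up to 0.0148).

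Of 18 genes of the citric acid cycle and pyruvate dehydrogenase, 5 were called higher and 4 lower in DZ, 2 higher and 12 lower in adenine, and 2 higher and 8 lower in SAM (of all genes, 22.6% and 23.4%, 30.6% and 31.0%, and 33.7% and 35.7%). In SAM, 6 were higher and 6 lower with plain read totals. Dlat, the acetyltransferase of pyruvate dehydrogenase, had 6.79, 6.83, and 6.80 in CTL, 6.79, 6.79, and 6.82 in DZ, 6.29, 6.25, and 6.23 in adenine, and 6.16, 6.19, and 6.20 in SAM. It fell in adenine (-0.55 ± 0.029) and SAM (-0.63 ± 0.029) and had -0.0084 ± 0.029 in DZ. Dld, the dehydrogenase shared with the oxoglutarate complex, had 7.19, 7.21, and 7.21 in CTL, 7.37, 7.37, and 7.34 in DZ, 6.63, 6.64, and 6.60 in adenine, and 6.73, 6.64, and 6.71 in SAM. Its values were 0.15 ± 0.03 in DZ, -0.58 ± 0.03 in adenine, and -0.51 ± 0.03 in SAM, all called. Of 13 genes of coenzyme Q synthesis and cytochrome c, 3 were called higher and 1 lower in DZ, 2 higher and 6 lower in adenine, and 3 higher and 4 lower in SAM. Coq8b had 4.25, 4.33, and 4.22 in CTL, 3.65, 3.75, and 3.59 in DZ, 3.52, 3.55, and 3.67 in adenine, and 3.65, 3.47, and 3.49 in SAM. All treated dishes lay below CTL, with -0.60 ± 0.071 in DZ, -0.69 ± 0.071 in adenine, and -0.73 ± 0.071 in SAM. Coq2, the prenyltransferase of the pathway, had 5.62, 5.50, and 5.57 in CTL, 5.55, 5.59, and 5.62 in DZ, 5.42, 5.37, and 5.31 in adenine, and 4.95, 4.96, and 5.01 in SAM. The fold change was 0.022 ± 0.043 in DZ, -0.20 ± 0.043 in adenine (not called with plain read totals), and -0.59 ± 0.043 in SAM.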

How the data were processed

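Polyadenylated RNA of 12 culture dishes (4 groups of 3) was sequenced. The authors used Trimmomatic for trimming, HISAT2 for alignment to GRCm39, StringTie for quantification, and edgeR for normalization. Their deposited values are log2 CPM for 12591 genes, on a normalized library size and with a prior count of 2. The method behind the scaling factors is not given in the sources used here. The members and gene lists were chosen with earlier results of these data known.

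Because the deposited values are log2 and not raw reads, they were tested as they stand with limma 3.58.1 (R 4.3.3; lmFit, 4 contrasts, eBayes with a variance trend, Benjamini-Hochberg over all genes, FDR of 0.01) in place of the count test of the study. Groups were taken from the sample titles. Whole reads were recovered for 100% of values within 0.05 of a whole read, with 45649534 to 56789090 reads per library. StringTie derives them from coverage, so they are estimates. Both steps were tested on simulated data. The replicate numbers were not taken to pair the dishes. Deviations of same-numbered libraries had Pearson r across genes from -0.142 to 0.181, which does not show pairing and cannot exclude it.

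Symbols and positions are those of GENCODE vM39, in which 12575 of the 12591 identifiers were found. Copies were searched with blastn 2.17.0, as at least 100 bases of coding sequence at 97% identity or more in a transcript of another gene. Such copies were found for 36 members. The search also counted transcripts of overlapping genes, such as Smdt1 for Ndufa6, and 16 of the 36 had a pseudogene copy. Start windows are those of RefSeq on GRCm38.p6. Values in every library are given, by a fixed rule, for the called member with the largest rise and fall in each complex and treatment, all of complex II, the isoform families, and up to 2 genes of each other list with the smallest adjusted p. Other genes with values, among them Ndufa10, Ndufb10, Ndufaf3, Ndufaf5, Atp5f1a, Atp5f1b, and Atp5if1, were chosen after their values were seen.

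The alternatives tried were robust empirical Bayes, no variance trend, a mean log2 CPM of at least 3, median centring, plain read totals, a pseudocount of 1 CPM, voom on the recovered reads, an FDR of 0.05, a separate model of 2 groups, a replicate block, leaving out each library, members without a copy, and structural subunits only.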

Additional observations from a re-analysis of the deposited data

How the results depend on the processing

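With plain read totals the median log2 fold change of the 89 genes was -0.033 in DZ, -0.028 in adenine, 0.12 in SAM, and 0.15 in SAM minus adenine, 15 genes were called lower in SAM, and 44 higher and 3 lower in SAM minus adenine. Median centring gave medians of -0.073 in DZ and -0.14 in adenine. The 53 members with no near-identical copy, a smaller list, had 13 called lower in DZ, 18 in adenine, and 15 in SAM, and 13 higher and 2 lower in SAM minus adenine, with medians of -0.032, -0.021, and 0.078 in DZ, adenine, and SAM. Structural subunits only, without the assembly factors and Atp5if1, had 8 called higher in DZ. In SAM minus adenine, no variance trend gave 15 higher and 3 lower, a separate model of 2 groups 14 higher, and an FDR of 0.05 gave 42 higher. For the shifts that are not built into the alternative, the cause was not tested. Leaving out each library gave 8 to 12 genes higher in DZ and 12 to 24 higher and 3 to 8 lower in SAM minus adenine. It gave medians of -0.069 to -0.030 in DZ, where those without CTL replicates 2 and 3 were the lowest and the highest, and -0.11 to -0.048 in adenine, the highest without adenine replicate 3.

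The dishes were not shown to be paired. A replicate block gave 15 genes higher and 25 lower in DZ, 16 and 38 in adenine, 29 and 31 in SAM, and 23 and 5 in SAM minus adenine. For the totals over the 89 genes, several alternatives moved no count by more than 1.5 times. These were robust empirical Bayes, the filter at a mean log2 CPM of 3, the pseudocount of 1 CPM, and voom. Some counts of smaller lists did move. With robust empirical Bayes, 4 genes of complex V were lower in DZ and 1 gene of complex II was lower in adenine. With the filter, 1 gene of coenzyme Q synthesis and cytochrome c was higher in SAM.

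Of 2688 alternative values of 42 named genes, 2496 kept their sign and their side of the threshold, 89 lost a call, 68 gained one, and 35 changed sign, none of them called. Median centring turned Ndufa12 in adenine (-0.023) and SAM (-0.0080), Cox6b1 (-0.0099) and Cox7a2 (-0.034) in adenine, Sdha in SAM (-0.035), and mt-Cytb in DZ (-0.0023). Voom turned Ndufa12 in SAM minus adenine (-0.00076). Plain read totals turned Sdhd (0.012), Cyc1 (0.042), and Cox8a (0.0021) in adenine, Uqcrb (0.0072) and Dlat (0.017) in DZ, and Ndufa5 (0.027), Cox4i1 (0.021), and Coq8b (0.014) in SAM minus adenine. Without single libraries the range crossed 0 for Ndufa12 in adenine (-0.0041 to 0.068), SAM (-0.025 to 0.071), and SAM minus adenine (-0.054 to 0.040), for Ndufb3 (-0.18 to 0.020), Uqcrb (-0.034 to 0.0047), Atp5me (-0.024 to 0.063), Ndufa4 (-0.0071 to 0.052), mt-Cytb (-0.016 to 0.034), Dlat (-0.018 to 0.0033), and Coq2 (-0.0093 to 0.049) in DZ, for Cyc1 in adenine (-0.053 to 0.020), for Sdha in SAM (-0.011 to 0.019), and for Coq8b in SAM minus adenine (-0.10 to 1.6e-05).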
